A study of Homo sapiens with 4 samples.

Results

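The response of 8505C cells to dihydrotanshinone was read from 2 RNA-seq libraries, 1 of cells given 1.5 µM DHT for 24 h and 1 of cells given the vehicle DMSO for the same time. In this series DHT is dihydrotanshinone, a quinone of the tanshinone class found in Salvia root, not the androgen. 8505C is an established line derived from anaplastic thyroid cancer. The other line of the series, SW1736, is of the same cancer type, had the same treatment and is used here for comparison, so the series holds 4 libraries, 1 per line and treatment. With 1 library per group no difference below has a replicate check, and none carries a p-value. Nothing in the labels says whether the libraries stand for 1 culture or several. Expression is given as TPM from the deposited tables, which scales reads by transcript length and sums to 1000000 per library. The genes described are the 12664 of 26485 listed identifiers whose mean over the 2 8505C libraries was at least 1 TPM, and each fold is log2((DHT + 1) / (DMSO + 1)) in TPM, which understates the fold of genes with low levels. Just inside that limit lay CTSO (1.01 TPM with DMSO and 0.986 with DHT) and CARD14 (0.656 and 1.35), and just outside it lay DGUOK-AS1 (1.32 and 0.676) and TMEM198 (1.08 and 0.918).

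Anaplastic thyroid cancer cells have largely lost the follicular program that makes thyroid hormone, while many keep epithelial keratins beside mesenchymal genes. Tanshinones are known as inhibitors of the binding of HuR, an RNA-binding protein encoded by ELAVL1, to AU-rich mRNAs, and quinones are substrates of cellular reductases. Gene-level values from a transcript assembler carry one known difficulty: where genes overlap, have near-identical copies or share a read-through transcript, the same reads can be credited to either gene.

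The label was read against marker genes first. Of 20 thyroid factors and differentiation genes, 4 reached a mean of 1 TPM: the transcription factors NKX2-1, HHEX and GLIS3 and the thyroid hormone receptor THRA. The defining differentiation genes TG, TSHR and SLC5A5 were listed at 0 in both libraries, and 9 of the 20 were at 0 in both. Of the epithelial markers, KRT7, KRT8 and KRT18 stood between 734 and 1418 TPM. KRT19 was at 0 in both libraries, EPCAM at 0.184 and 0.0575 TPM and CDH1 at 0.0247 and 0.0113 TPM. Of 22 immune and blood markers 3 reached 1 TPM, among them CD68, and 14 were at 0 in both libraries. Summed immune marker TPM was 52.97 with DMSO and 69.9 with DHT, nearly all of it CD68 (49.6 and 65.3). Of 14 fibroblast and smooth muscle markers 5 reached 1 TPM, with a sum of 70.7 and 100.03 TPM. PDGFRA and FAP were at 0 in both libraries. Of 17 melanocyte and neural markers 4 reached 1 TPM (sum 175 and 178), with TYR, DCT and S100B at 0 in both. Their part in the results below was not tested. The ratio of deposited coverage to FPKM gave 3.26 Gb of aligned bases for the DMSO library and 4.14 Gb for the DHT library. Read numbers are not known, so no counting interval is given.

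Most mRNAs of 8505C were close to level between the libraries. Of the 12664 genes, 10804 (85.3%) were within 1.2-fold and 12279 (96.96%) within 1.5-fold. The median log2 fold was -0.02, and percentiles 5 and 95 were -0.28 and 0.39. At least 2-fold higher with DHT were 80 genes, 0.632% of those compared, and at least 2-fold lower were 37, or 0.292%. At 1.5-fold the counts were 273 higher (2.16%) and 112 lower (0.884%). Genes past 2-fold were mostly of low level. Between 1 and 5 TPM 2.77% of genes were past 2-fold in either direction, between 5 and 20 TPM 0.602%, between 20 and 100 TPM 0.453%, and at 100 TPM or more 0.166%, which is 3 genes. These 3 were PEA15, NKX2-1 and CYB5R3.

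**Figure D1:**
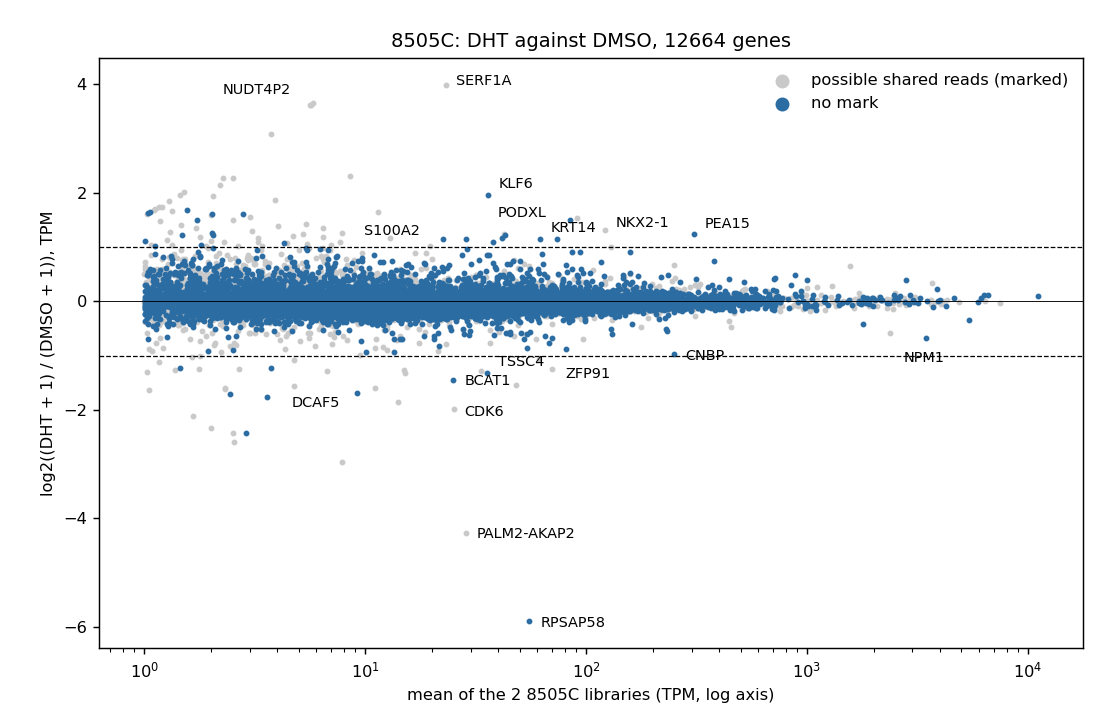
Log2 fold of each of 12664 genes in 8505C (vertical axis, DHT against DMSO on the TPM + 1 scale) against its mean TPM over the 2 libraries (horizontal log axis); dashed lines mark 2-fold, blue points are genes with no mark of shared reads and grey points are genes with one. The cloud narrows toward high TPM, 80 genes lie on or above the upper line and 37 on or below the lower line, and most of the outlying points are grey.

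Genes whose reads could be shared were marked: those with several entries in a table, those overlapping another gene on the same strand, those overlapping a gene of at least 1 TPM on either strand, and those with a read-through name. The marked genes were 3937 of the 12664 (31.1%), but they made up 85 of the 117 genes past 2-fold (72.6%). Among unmarked genes 0.367% were past 2-fold (23 higher and 9 lower), and among marked genes 2.16% (57 higher and 28 lower). A mark covers overlap and repeated entries only, and similar sequences elsewhere in the genome were not searched for.

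Unmarked genes at a mean of 5 TPM or more are described first, among which 10 higher and 4 lower genes were past 2-fold. KLF6, a zinc finger transcription factor of the early response class (hg38 chromosome 10, 3775996 to 3785281), was highest. It stood at 14.2 TPM in the DMSO library and at 57.9 in the DHT library (log2 fold 1.95). S100A2, a calcium-binding protein of epithelial cells (chromosome 1, 153561109 to 153565830), was at 13.6 and 31.5 TPM, a log2 fold of 1.15. BCAT1, which encodes the cytosolic transaminase of branched-chain amino acids (chromosome 12, 24810024 to 24949459), was at 37.2 and 13.02 TPM, a log2 fold of -1.45. These 3 were also past 2-fold in the same direction in SW1736, with log2 folds of 2.74, 1.04 and -1.31. Relative to the median gene of SW1736 the values were 3.17, 1.47 and -0.88, so that BCAT1 was then short of 2-fold there. They are the unmarked genes of at least 5 TPM past 2-fold in both lines without that centring, besides RPSAP58 described below. Their promoters are shown for that reason, as the 250 bases before the RefSeq start (GRCh38.p14), 5′ to 3′ on the gene's strand. The windows are chr10:3785210-3785459 for KLF6, chr1:153565845-153566094 for S100A2 and chr12:24949102-24949351 for BCAT1, all on the minus strand. The RefSeq start is not always the end of the gene's span in the deposited tables: the whole BCAT1 window and 72 bases of the KLF6 window lie inside that span. Capitals mark every match, on either strand, to one of 8 motifs.
KLF6: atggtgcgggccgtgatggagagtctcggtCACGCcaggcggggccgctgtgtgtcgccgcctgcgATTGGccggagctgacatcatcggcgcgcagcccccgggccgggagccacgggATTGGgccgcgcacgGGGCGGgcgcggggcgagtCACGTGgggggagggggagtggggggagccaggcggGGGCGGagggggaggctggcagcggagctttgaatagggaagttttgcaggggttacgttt
S100A2: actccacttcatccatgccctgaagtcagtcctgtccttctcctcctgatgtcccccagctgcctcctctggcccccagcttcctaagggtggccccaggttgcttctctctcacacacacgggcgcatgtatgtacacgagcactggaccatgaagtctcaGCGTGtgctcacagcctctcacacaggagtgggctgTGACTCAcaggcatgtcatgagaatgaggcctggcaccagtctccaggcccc
BCAT1: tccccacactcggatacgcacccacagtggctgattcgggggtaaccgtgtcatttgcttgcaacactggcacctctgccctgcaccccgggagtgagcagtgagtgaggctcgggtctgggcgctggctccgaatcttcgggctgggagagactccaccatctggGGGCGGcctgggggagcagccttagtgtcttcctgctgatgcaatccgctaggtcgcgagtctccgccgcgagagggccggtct
The motifs searched were the AP-1 motif TGANTCA, the cAMP response element TGACGTCA, the antioxidant response motif TGACNNNGC, the xenobiotic response core GCGTG, the E-box CACGTG and the GC box GGGCGG. Also searched were the box named CCAAT and the TATA motif, spelled TATAAA. The xenobiotic core can overlap the E-box. The KLF6 window held GCGTG, the E-box, the GC box and CCAAT, the S100A2 window TGANTCA and GCGTG, and the BCAT1 window the GC box. Among the promoters of the same length found for 9249 of the 12664 genes, TGANTCA was present in 3.82%, TGACGTCA in 3.01%, TGACNNNGC in 12.2%, GCGTG in 46.5%, CACGTG in 9.15%, GGGCGG in 68.4%, CCAAT in 35.8% and TATAAA in 4.98%. No motif was present in all 3 windows. A match is a description of these letters and shows no binding.

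The other higher genes included 2 that encode actin-binding proteins and 1 for a cell surface mucin. PODXL, a sialomucin of the cell surface (chromosome 7, 131500262 to 131556617), was at 43.8 TPM without DHT and at 125 with it (1.49). CFL2, an actin-severing cofilin, was at 25.5 and 60.7 TPM (1.22). AFAP1, which links actin filaments to SRC family kinases, was at 45.7 and 102 TPM (1.14). These 3 genes were not higher in SW1736, where their log2 folds were -0.42, -0.53 and -0.93 beside a median of -0.40 over the same 12664 genes. None of these line differences was tested. KRT14, a keratin of basal epithelium, was at 38.1 and 85.5 TPM (1.15) and was listed at 0 in both SW1736 libraries. In bulk RNA more cells expressing a gene and more RNA per cell cannot be told apart.

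The higher genes also included 2 whose proteins act on the kinase ERK. PEA15, a death effector domain protein that holds ERK in the cytoplasm (chromosome 1, 160205319 to 160215376), was at 182 and 435 TPM, a log2 fold of 1.25 and a gain of 252 TPM. DUSP4, a nuclear phosphatase that inactivates ERK, was at 23.9 and 52.3 TPM (1.10). The remaining genes of the 10 were FAM83A, at 17.4 and 40.1 TPM (1.16), and LINC00998, at 25.1 and 57.8 TPM (1.17). Below the 2-fold line came PRR16 (0.98), C19orf66 (0.97), an interferon-stimulated inhibitor of ribosomal frameshifting, the ubiquitin ligase gene RNF6 (0.96), LINC01537 (0.95) and TM4SF4 (0.94). PRR16, at 3.31 and 7.52 TPM, was at 0.59 with a pseudocount of 5 and at 0.085 by deposited coverage. RNF6 was at -0.69 in SW1736.

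Besides BCAT1 and RPSAP58, the lower unmarked genes past 2-fold were DCAF5 and TSSC4. DCAF5, a substrate receptor of a cullin ubiquitin ligase (chromosome 14, 69050920 to 69153197), was at 14.5 TPM without DHT and at 3.82 with it (-1.68), and at -0.82 in SW1736. TSSC4, which takes part in assembly of the spliceosome (chromosome 11, 2400488 to 2403878), was at 51.2 and 19.9 TPM (-1.32), and at 0.05 in SW1736. The nucleic acid binding protein gene CNBP lay just short of 2-fold at 333 and 168 TPM (-0.98), a loss of 165 TPM. After it came the small GTPase gene RAB29 (-0.94), the pseudogene SDHAP3 (-0.94), CDK2AP1, which encodes a protein that binds cyclin-dependent kinase 2 (-0.87, from 106 to 57.2 TPM), and the chromatin protein gene GLYR1 (-0.87). The ubiquitin ligase gene RNF41 (-0.82), the mitochondrial gene HIGD1A (-0.76), VPS13B (-0.72), DNAJC4 (-0.70) and YIPF5 (-0.70) were also among the 15 lowest.

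**Figure D2:**
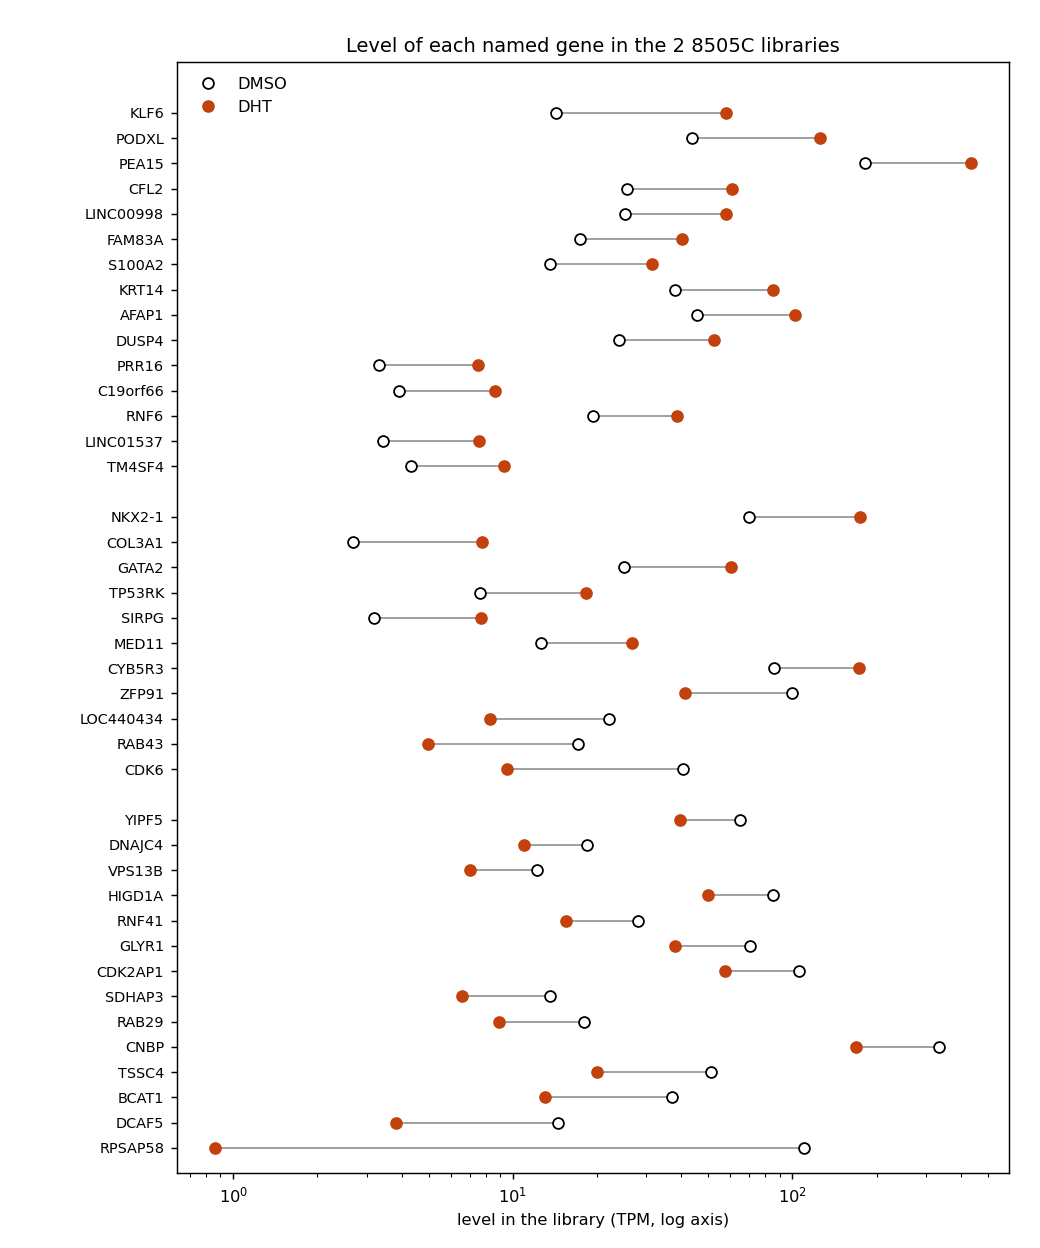
TPM of each gene in the DMSO library (open circles) and the DHT library (filled circles) of 8505C on a log axis; the top block holds the 15 unmarked genes with the highest fold, the bottom block 14 of the 15 with the lowest, and the middle block the marked genes of at least 5 TPM that were past 2-fold also when summed with same-strand partners, or had no such partner. KLF6 runs from 14.2 to 57.9 TPM, and RPSAP58, with 110 and 0.858 TPM, has the longest line.

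The lowest unmarked value belonged to RPSAP58, a copy of the ribosomal protein gene RPSA that is named as a pseudogene though the annotation used lists it as protein-coding. It was at 110 TPM without DHT and at 0.858 with it (-5.90), and at 257 and 1.04 TPM in SW1736. RPSA itself was at 1764 and 1736 TPM in 8505C. Summed with RPSA the log2 fold was -0.11, and how reads were divided between the copies was not tested. The groups of copies and partners summed here and below were chosen after their values were seen.

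Near-identical copies and read-through partners were among the highest and lowest marked genes. SERF1A and its duplicate SERF1B were at 1.86 and 72.5 TPM with DMSO and at 44.4 and 24.05 with DHT. Their log2 folds were 3.99 and -1.55, and that of their sum was -0.12. The pseudogene copies NUDT4P1 and NUDT4P2 were at 21.7 and 0 TPM with DMSO and at 8.40 and 11.7 with DHT, and their sum was at -0.11. One member of each pair gained what the other lost.

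Genes with a read-through transcript or a close neighbour were summed in the same way. INO80B, a subunit of a chromatin remodelling complex, was at 22.6 and 5.50 TPM, while the read-through INO80B-WBP1 was listed at 0 and at 11.3 TPM. With WBP1 added, the log2 fold was -0.08. PALM2-AKAP2 was at 55.3 and 1.92 TPM (-4.27), AKAP2 at 177 and 222, and with PALM2 their sum was at -0.06. RBM12 (-1.29) shares its locus with CPNE1, which at 317 and 325 TPM makes up most of their sum (-0.09). SNRPN (1.43) and SNURF (-0.21) share a transcript unit and summed to 45.8 and 45.7 TPM. RAB43 was at 17.2 and 4.99 TPM (-1.60), and at -1.78 in SW1736. The read-through ISY1-RAB43 was listed at 0 in both 8505C libraries, so RAB43 had no same-strand partner at a mean of 0.1 TPM there. ISY1, its neighbour, was at 32.3 and 40.4 TPM, and both together were at -0.12. Not every sum lay near 0. SERF2 with SERF2-C15ORF63 was at 0.54. KLHL23 with PHOSPHO2 and PHOSPHO2-KLHL23, the last of which was listed at 0 and at 11.4 TPM, was at 0.29. PVRIG2P, at 2.19 and 14.8 TPM, was at 1.87 when summed with PVRIG. Summed instead with the read-through STAG3L5P-PVRIG2P-PILRB, which overlaps it, it was at 15.4 and 29.1 TPM (0.88), short of 2-fold.

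**Figure D3:**
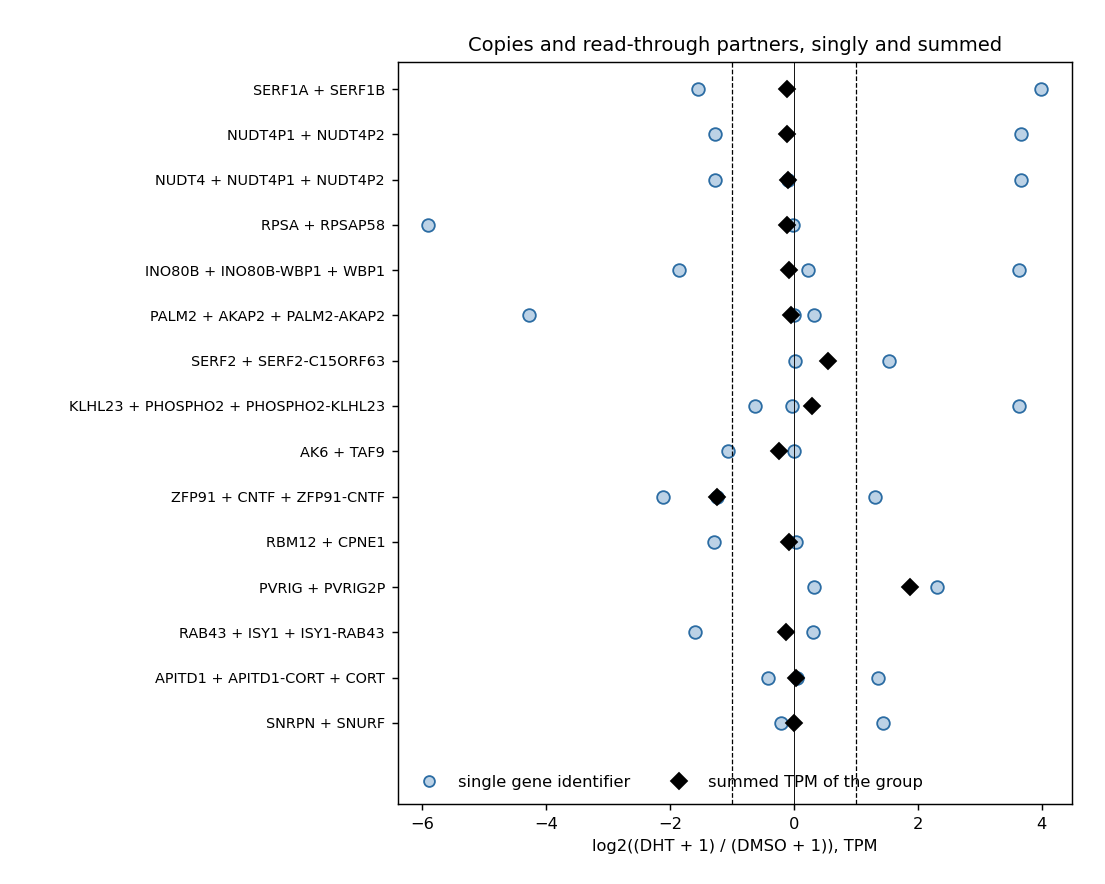
Log2((DHT + 1) / (DMSO + 1)) of single gene identifiers (circles) and of the summed TPM of their group (diamonds) in 8505C, for the 15 of 16 summed groups not listed at 0 with DMSO, with dashed lines at 2-fold; a circle for a gene listed at 0 in 1 library is a difference on this scale and no fold. The single identifiers lie up to -5.90 and 3.99 from 0, while 11 of the 15 diamonds lie between -0.24 and 0.04, the others being those of ZFP91 (-1.25), KLHL23 (0.29), SERF2 (0.54) and PVRIG2P (1.87), each with its partners. The pair NUDT4P1 and NUDT4P2 is shown both alone and with NUDT4. A sum with a far more abundant partner mostly reads that partner and cannot show where the reads went. RPSA was at 1764 and 1736 TPM and TAF9 at 200 and 199, so neither gained.

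Across all 85 marked genes past 2-fold, 69 overlapped a gene on the same strand that reached a mean of 0.1 TPM. Summed with those partners, 8 of the 69 stayed past 2-fold and 51 were within 1.2-fold. Partners can be far more abundant than the gene itself, in which case the sum mostly reads the partner. The 28 lower marked genes include the cell cycle kinase gene CDK6 and the ubiquitin ligase gene ZFP91, which did stay past 2-fold.

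CDK6, the cyclin D-dependent kinase of the G1 phase (chromosome 7, 92604921 to 92836627), was at 40.8 TPM without DHT and at 9.52 with it (-1.99), the lowest of any gene on the G1/S list. Its same-strand overlap is the small RNA pseudogene RNU6-10P, at 0.754 and 0.503 TPM, and the sum was at -1.95. In SW1736 CDK6 was at 40.3 and 21.8 TPM (-0.85). ZFP91 was at 99.4 and 41.2 TPM (-1.25), and summed with the read-through ZFP91-CNTF it was at -1.20. NKX2-1, the lung and thyroid homeobox factor (chromosome 14, 36516399 to 36520225), was at 69.8 and 174 TPM (1.31). The overlapping NKX2-1-AS1 on the other strand was at 1.92 and 2.21 TPM. CYB5R3, which encodes the NADH-dependent cytochrome b5 reductase (chromosome 22, 42617840 to 42649399), was at 85.6 and 172 TPM (1.00), the gene nearest the 2-fold line on its upper side. It was at -0.05 in SW1736.

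GATA2, COL3A1, TP53RK, MED11, SIRPG and LOC440434 were likewise past 2-fold at means of at least 5 TPM, their sum being past 2-fold or without a same-strand partner, and apart from COL3A1 they are named after their values were seen. LOC440434, which has several entries, was the lower one of these, at 22.1 and 8.27 TPM (-1.32). The zinc finger factor gene GATA2 was at 24.95 and 60.2 TPM (1.24), whereas GATA2-AS1 on the other strand was at 13.9 in both libraries. COL3A1, a fibrillar collagen gene, was at 2.69 and 7.77 TPM (1.25). NKX2-1, GATA2, KRT14 and FAM83A were below 1 TPM in both SW1736 libraries, so no like response could be read there. Whether the library counts strand is not given in the sources used here, and reads of genes on opposite strands may not be told apart.

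Genes of small RNAs were past 2-fold in a larger share than coding genes, and nearly all carried a mark. Of 149 microRNA loci 13 were higher and 5 lower, and of 189 snoRNA genes 13 were higher and 6 lower, beside 36 and 20 of 11349 protein-coding genes. Marks were carried by 88.6% of the microRNA loci and 93.7% of the snoRNA genes, most of which lie inside host transcripts. MIR564, at 14.6 and 1.01 TPM (-2.96), was at -0.69 when summed with TMEM42, in which it lies. An mRNA library does not measure mature microRNAs, so these values are not read as microRNA levels.

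Below 5 TPM, 13 unmarked genes were higher and 5 lower, and of these 5 and 2 were protein-coding. They are named after their values were seen. The higher coding genes were the receptor gene ERBB3 (0.839 and 2.79 TPM), FGFBP1 (0.792 and 3.28), TEX40 (0.828 and 3.25) and the near-identical fetal globin genes HBG1 and HBG2, which carry no mark. How reads were divided between that pair was not tested. The lower coding genes were CLEC2D (5.59 and 0.221 TPM) and KCNMB3 (4.28 and 0.606).

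In absolute TPM the gains and losses fell on abundant transcripts with small folds. VIM, the mesenchymal intermediate filament, was at 3241 TPM without DHT and at 4076 with it (0.33), and it overlaps a gene of at least 1 TPM. The beta tubulin gene TUBB was at 1210 and 1910 TPM (0.66), though it has several entries and overlaps another gene. In SW1736 TUBB was at 1835 and 295 TPM (-2.63). The actin-binding thymosin gene TMSB4X was at 2422 and 3178 (0.39), and ANXA2, ACTB, RPLP1, TMSB10 and KRT7 were the other large gains. The nucleolar chaperone gene NPM1 had the largest loss, from 4238 to 2647 TPM (-0.68), followed by the collagenase gene MMP1, from 6015 to 4764 (-0.34). NPM1 was at 0.19 in SW1736. RNA18S5, an 18S ribosomal RNA entry, was at 2852 and 1903 TPM (-0.58), in libraries made from mRNA. LDHA, which encodes lactate dehydrogenase A, was at 2054 and 1542 TPM (-0.41). EEF1A1, RPL7, HSP90AA1 and EIF4A1 followed, each between -0.08 and -0.14. Among these losses RNA18S5, HSP90AA1 and EIF4A1 carry a mark of shared reads. The 10 most abundant genes took 6.44% of all TPM in the DMSO library and 6.52% in the DHT library.

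Gene groups were described by counts and medians. List members named below can carry a mark of shared reads even where none is mentioned. Over all genes compared, 5573 of 12664 (44.0%) were above 0. Of 60 lists, 57 had at least 5 members compared, and the medians of these 57 lay from -0.09 to 0.38, with 29 above the median of all genes and 28 below.

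Keratins had the highest median, 0.38. Of 8 keratins compared, 7 were above 0, and their summed TPM was 3030 with DMSO and 3851 with DHT. Beside KRT14, the genes with the largest folds were KRT17 (0.83), which was at 5.06 and 9.79 TPM, KRT80 (0.75), at 24.1 and 41.4, and KRT7 (0.48), at 734 and 1026. The simple epithelial keratins KRT8 and KRT18 were at 0.27 and 0.28. S100 proteins followed, with 9 of 10 members above 0 and a median of 0.31. S100A6 was at 867 and 1135 TPM (0.39) and S100A16 at 457 and 584 (0.35), and S100A1, with 1.35 and 1.07 TPM, was the member below 0.

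Endothelial markers, of which 8 of 18 reached 1 TPM, had a median of 0.30 with 7 above 0. TIE1 was at 43.4 and 59.7 TPM (0.45), CDH5 at 128 and 147 (0.20) and ROBO4 at 4.71 and 7.80 (0.62). ESM1, the most abundant of them, was the member below 0, at 503 and 480 TPM (-0.07), and FLT1 was at 0.06. Summed TPM of the 8 was 786 with DMSO and 816 with DHT. KDR, VWF and ERG were among the 5 of the 18 endothelial markers listed at 0 in both libraries. All 5 fibroblast and smooth muscle markers compared were above 0, with a median of 0.24, led by the actin-binding gene TAGLN at 48.1 and 72.9 TPM (0.59). The collagen list had 14 of 16 members above 0 (median 0.14), with COL5A1 at 0.31 and COL4A1 at -0.03. The list of matrix metalloproteinases and their inhibitors ran both ways, with TIMP3 at 0.69, PLAT at 0.40 and MMP1 at -0.34.

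Signalling lists showed single members rather than whole groups apart from 0. Of 29 immediate early genes KLF6 alone was past 2-fold, 15 were above 0 and 14 below, and the median was 0.01. EGR1 was at -0.41 and ATF3 at -0.33, whereas FOSL1 was at 0.20. Of 24 genes of ERK feedback and output, DUSP4 alone was past 2-fold (median 0.02). UPP1 was at 0.51, EMP1 at 0.48 and DUSP6, a cytoplasmic ERK phosphatase, at -0.41. Among ligands of the EGF receptor, AREG was at 34.5 and 58.5 TPM (0.75), EPGN at 0.55 and EREG at 0.46, and HBEGF at -0.24. Of 38 genes of the MAPK and PI3K list 22 were below 0 (median -0.06). PEA15 alone was past 2-fold there, STAT3 was at 0.49 and AKT1, which carries a mark of shared reads, at 0.46. Past 1.5-fold lower was 1 member. CXCL1 (0.60), IL32 (0.59) and CXCL8 (0.52), which encode secreted cytokines, led a cytokine list with a median of 0.02 and 16 of 30 members above 0. Interferon-stimulated genes had 16 of 26 members above 0 (median 0.11), none past 1.5-fold, with IFIT2 at 0.42 and ISG15 at 0.39.

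Genes of redox defence and of the heat shock response gave no common direction. The 29 NRF2 targets and redox genes had a median of -0.02. CYB5R3 was 2-fold higher, whereas the thioredoxin reductase gene TXNRD1 was at 528 and 380 TPM (-0.47), EPHX1 at -0.43 and the quinone reductase gene NQO1 at 237 and 189 TPM (-0.33). Of these CYB5R3, TXNRD1 and EPHX1 carry a mark of shared reads and NQO1 carries none. The heat shock and chaperone list had a median of -0.00 (13 of 27 above 0), with DNAJB2 at 0.56, HSPB1 at 613 and 826 TPM (0.43) and HSPA4L at -0.40. Of 20 genes of iron handling and ferroptosis 16 were below 0 (median -0.08). Integrated stress response genes had a median of -0.07, and the lowest named member was EIF2AK1, the heme-regulated kinase of eIF2 alpha, at 120 and 73.3 TPM (-0.70). EIF2AK1 carries a mark, as it overlaps a gene of at least 1 TPM. Of 8 genes compared on the aryl hydrocarbon receptor list 3 were above 0 (median -0.05). They ran from -0.58 for TIPARP, which carries a mark, to 0.52 for ARNT2, at 0.871 and 1.69 TPM. The receptor targets CYP1A1 and CYP1B1 were below 1 TPM in both libraries.

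Lists of ribosome biogenesis, the proteasome, branched-chain amino acids, the cell cycle and repair had medians slightly below that of all genes, -0.02. Of 49 ribosome biogenesis genes 39 were below 0 (median -0.08), with NPM1 the only one past 1.5-fold. Of 34 proteasome subunits 28 were below 0 (median -0.06), PSMA6 being lowest at 271 and 191 TPM (-0.50). Of 23 genes of branched-chain amino acid catabolism 19 were below 0 (median -0.08), and BCAT1 was the only one past 1.5-fold. The G1/S list (32 of 47 below 0, median -0.07) had CDK6 past 2-fold, CCNE1 at -0.35 and CCND1 at 0.22. The cyclin D1 mRNA was at 539 and 629 TPM while that of its kinase CDK6 was lower. G2/M genes (41 of 56 below 0, median -0.07) all lay within 1.2-fold, from -0.21 for PLK4 to 0.20 for CDC20, and MKI67 was at -0.15. Genes of crosslink and excision repair had a median of -0.08, with ERCC1 at 0.13. Cholesterol synthesis genes had a median of -0.02, though FDFT1 was at -0.51.

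The HuR-linked lists lay close to 0. ELAVL1 was at 68.1 and 66.4 TPM. Of 34 reported HuR target mRNAs 15 were above 0 (median -0.02), with CXCL8, PTGS2 (0.46) and XIAP (0.41) highest, and of 22 AU-rich element binding proteins 6 were above 0 (median -0.04). Cytosolic ribosomal proteins, 81 compared, had a median of 0.01 and ran from -0.15 to 0.15. Nuclear and stress-linked long noncoding RNAs (18 of 23 above 0, median 0.14) and snoRNA host genes (17 of 21 above 0, median 0.13) lay higher, with NEAT1 at 215 and 277 TPM (0.37). All 21 host genes and NEAT1 carried a mark of shared reads, and only 6 of the 23 long noncoding RNAs carried none. Long noncoding RNA genes of all kinds, 492 compared, had a median of 0.09. Hypoxia-inducible genes had the lowest median, -0.09 with 21 of 30 below 0, although the collagen crosslinking enzyme gene LOX was at 59.9 and 114 TPM (0.91).

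**Figure D4:**
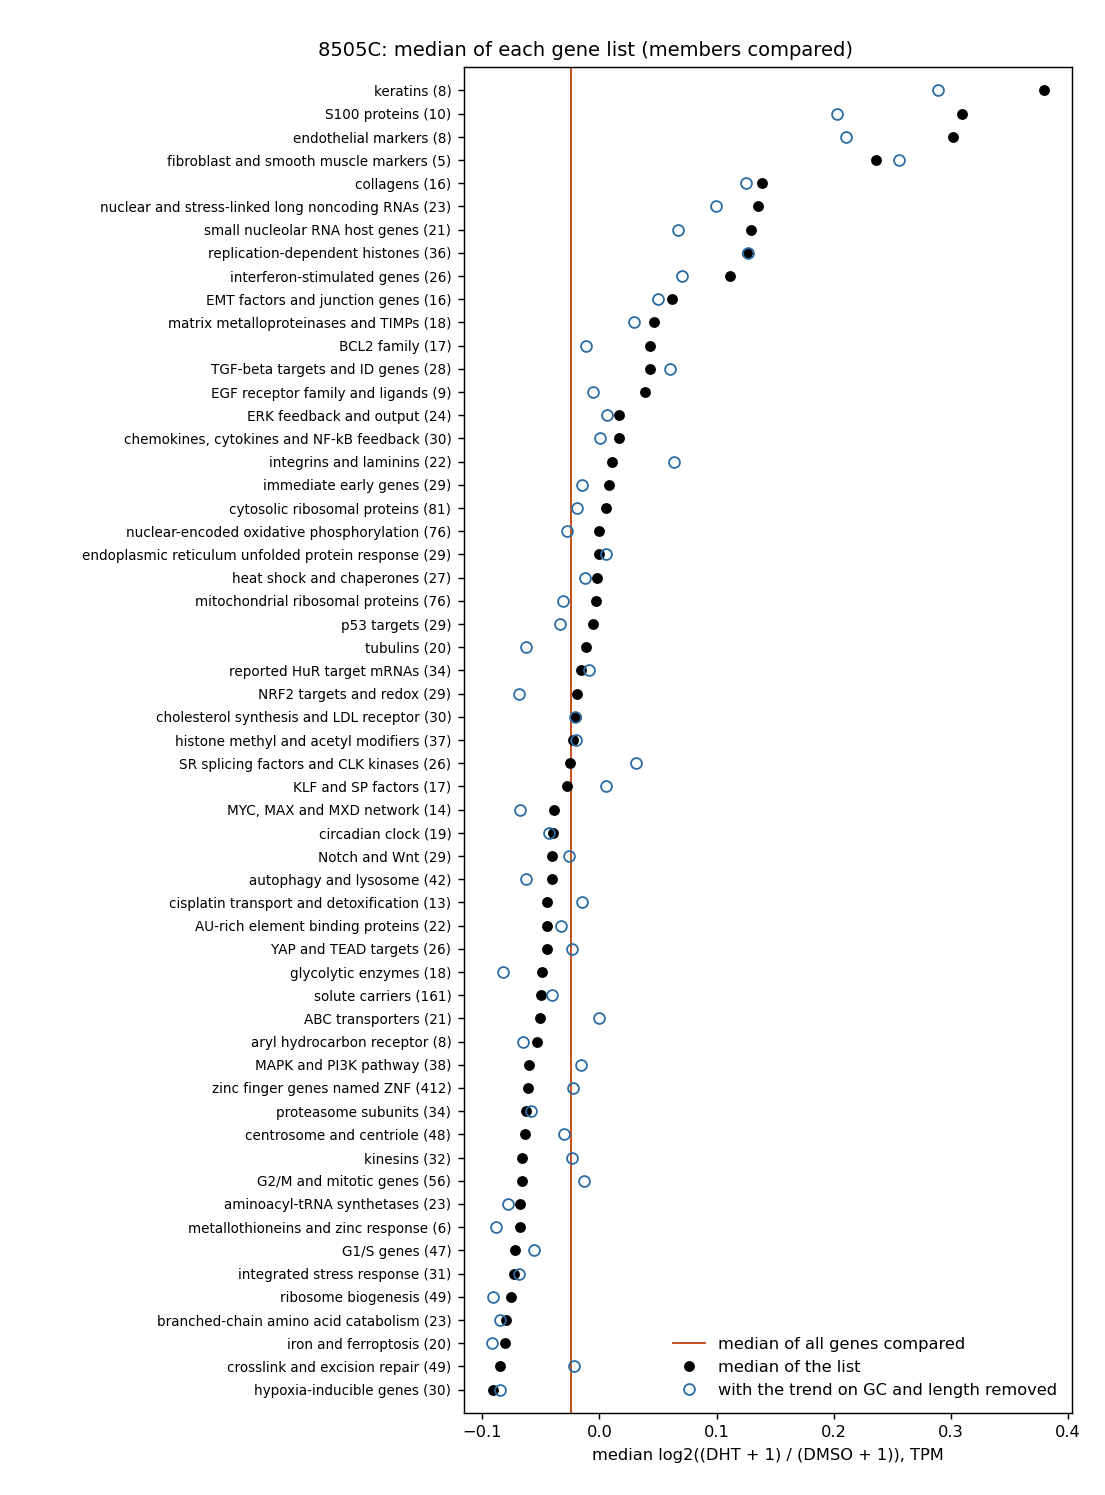
Median log2 fold in 8505C of each of 57 gene lists (filled circles, members compared in brackets) and the same with the trend on mRNA GC content and length removed (open circles), with the median of all genes as a vertical line. Keratins, S100 proteins and endothelial markers lie farthest right at 0.38, 0.31 and 0.30, and hypoxia-inducible genes farthest left at -0.09.

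The small shifts moved with base composition. Across the 12364 genes with a GENCODE 29 transcript, the fold correlated with mRNA GC content (Spearman's rho 0.44, across genes that share both libraries), and with mRNA length (-0.25). In 5 equal groups of genes, from the lowest GC content to the highest, the median log2 fold was -0.11, -0.09, -0.03, 0.03 and 0.09. In SW1736 the correlation with GC content was 0.26. With the trend on both properties removed, the median of keratins was 0.29, of S100 proteins 0.20, of endothelial markers 0.21, of collagens 0.13, of G2/M genes -0.01, of repair genes -0.02 and of ribosome biogenesis genes -0.09. That of snoRNA host genes was then 0.07 and that of nuclear and stress-linked long noncoding RNAs 0.10. The part of GC content in these shifts was not tested beyond this removal. Of 30 named genes past 2-fold with such a transcript, 29 stayed past it. Among them were KLF6 at 1.99, PODXL at 1.50, PEA15 at 1.22, BCAT1 at -1.31 and CDK6 at -1.86. Over all genes with a transcript 68 were then at least 2-fold higher and 40 lower. Before removal the counts over all genes compared were 80 and 37.

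**Figure D5:**
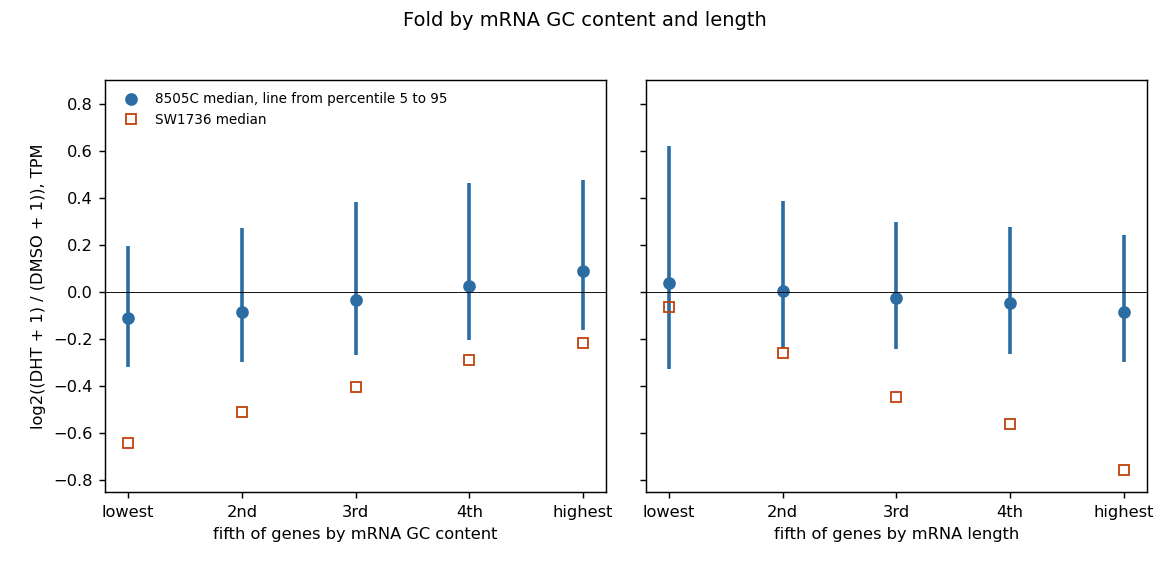
Median log2 fold in 5 equal groups of genes by mRNA GC content (left) and mRNA length (right) for 8505C (circles, with lines from percentile 5 to 95 of the genes) and for SW1736 (squares, medians only). In 8505C the medians climb from -0.11 to 0.09 with GC content and go from 0.04 to -0.09 with length, steps far smaller than the spread within each group.

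The response was then set beside that of SW1736, with which it shares no library. Over the 12664 genes the folds of the lines correlated with Pearson's r of 0.17 and Spearman's rho of 0.28, a description across genes without a test. Of the 80 genes 2-fold higher in 8505C, 11 were 2-fold higher and 14 were 2-fold lower in SW1736, where 2.99% and 15.5% of the 12664 genes were so. Of the 37 lower genes, 9 were 2-fold lower there and 5 were 2-fold higher, to be read against the same shares. Among the 23 unmarked higher genes, 10 were above 0 in SW1736, 11 below and 2 were listed at 0 in both libraries. Of the 9 unmarked lower genes, 3 were above 0 in SW1736 and 6 below, where the median of all these genes was -0.40.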

How the data were processed

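mRNA libraries (Universal Plus mRNA-Seq, from 1 µg of total RNA, per the labels' protocols) were processed with bcl2fastq 2.20 and StringTie on hg38, per the submitters' processing notes. Not given in the sources used here are the aligner, annotation and StringTie version. The authors deposited abundance tables whose values for each gene are TPM, FPKM and coverage, per the file headers. Deposited TPM adds up to 1000000 in a library, so a gain of some mRNAs lowers all others. FPKM as deposited was used as an alternative, as was the deposited coverage (mean read depth, unscaled).

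TPM was summed over entries of an identifier (1429 identifiers had several), and folds were taken with a pseudocount of 1. With 1 library per group no test was run. The members, gene lists and panel of genes were chosen with earlier results of these data known. Genes named were the 15 highest and 15 lowest unmarked and the 6 highest and 6 lowest marked at a mean of 5 TPM, those listed at 0 in 1 library, the 8 largest TPM gains and losses, the 10 most abundant, the panel, up to 4 members per list and those next to a limit. Not all of these are printed, and a few values are not reported here. GC content and length came from the longest GENCODE 29 transcript of a gene. Alternatives were other pseudocounts, limits, units, centring, gene sets and removal of the GC and length trend. Folds and marks were tested on simulated data. Python 3.11.15, pandas 2.3.3, numpy 2.4.6, scipy 1.17.1 and matplotlib 3.10.9 were used.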

Additional observations from a re-analysis of the deposited data

Results flagged for a closer look

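PEA15 and PALM2-AKAP2 moved in opposite directions in the lines, at least 2-fold each way and at a mean of 5 TPM or more, and this difference was not tested. PEA15 was at a log2 fold of 1.25 in 8505C and at -1.10 in SW1736, where it was at 441 and 206 TPM. Relative to the median gene of SW1736 it was at -0.67, short of 2-fold. PALM2-AKAP2 was at -4.27 in 8505C and at 1.83 in SW1736, or 2.25 relative to the median gene there, and summed with AKAP2 and PALM2 it was at -0.06 in 8505C.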

How the results depend on the processing

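No paired analysis was possible because each group has 1 library, so no replicate could be left out either. Counts of genes past 2-fold depended on the setting, beside 80 higher and 37 lower as reported and 20 past 2-fold alike in both lines. With a pseudocount of 0.1 they were 150 higher, 59 lower and 43 in both lines, and with a pseudocount of 5 they were 18, 15 and 6. At a mean of at least 5 TPM they were 30, 16 and 9, with unmarked genes alone 23, 9 and 7, and with protein-coding genes alone 36, 20 and 8. With the GC and length trend removed they were 68, 40 and 18. With FPKM they were 34, 24 and 11, with the pseudocount and the limit both at 1 FPKM. Deposited FPKM adds up to 437144 with DMSO and 444082 with DHT in 8505C, beside 1000000 for TPM. That setting is therefore also a larger pseudocount and a stricter limit. At 1.5-fold 273 were higher and 112 lower. Summed with same-strand partners, an alternative chosen after seeing the data, 39 were higher and 17 lower. Of the 69 marked genes with such a partner, 22 had the opposite sign in the sum, among them 5 named genes, at 0.077 for MIR5587, 0.010 for MIR6819, -0.082 for INO80B-WBP1, -0.11 for NUDT4P2 and -0.10 for SERF1A. The sum holds the partner's reads. PRR16, below 2-fold as reported, was at 0.085 with coverage. Of the 31 named genes past 2-fold, all kept their direction with either pseudocount, centring, FPKM and coverage, and 31, 25, 30, 28 and 31 stayed past 2-fold with pseudocounts of 0.1 and 5, centring, FPKM and coverage. The number of lists above the median of all genes stayed between 25 and 31. The median log2 fold of all genes stayed between -0.03 and 0.01 in all settings run, and its sign is not read.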
